A study of Drosophila melanogaster with 15 samples.

Results

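Among the 11848 genes with a FlyBase ID in 3 isoform assemblies of *Drosophila melanogaster*, 28 genes had 11 or more mRNA isoforms in adult heads and no isoform under the same ID in late embryos or in ovaries. They came from 38 such genes, of which 10 were set aside by family: the phototransduction genes trpl, trp, ninaC, inaD and inaC, the opsin ninaE, the arrestin Arr1 and the ion channel genes Irk2, alka and Ekar. Isoform number and absence from the other tissues chose the 28 genes, so both are given as a description, with no test. Of the 1524 head genes with 11 or more isoforms, 2.49% had none in embryos or ovaries, while of all 11280 FlyBase IDs in heads 28.8% had none there. The 28 genes together held 476 isoforms, between 11 and 36 each (median 14.5). At the limit of the choice stood CarT, CG4630, CG8369, CG4836 and CG46317 with 11 isoforms each, and just outside it CG17378, CG8008, CG31103 and Sytalpha with 10 isoforms each, beside HisCl1, a channel gene with 10 that the families would have removed.

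Gene positions below are those of the annotation on dm6. All flies were of the w1118 strain, and no other genotype or treatment was compared. Full-length cDNA was sequenced on Oxford Nanopore devices from heads of 3-day-old adults (6 libraries, of which 4 had been enriched for cDNA above 3 kb and 2 had not), from embryos aged 14 to 16 h or 18 to 20 h (3 enriched libraries each, 50 embryos per replicate) and from ovaries of 3-day-old virgin females (3 enriched libraries, 20 ovaries per replicate). Heads and embryos were of both sexes. The authors pooled all libraries of a tissue, and both embryo ages, into 1 assembly that lists exon positions on dm6 with no read number. An isoform here is therefore a transcript model that met the authors' minimum of full-length reads, not a level, and neither depth per isoform nor spread between libraries could be computed. Differences between gene sets and tissues are given as values, and none was tested. The 28 genes were set against the 1486 other head genes with 11 or more isoforms and, chosen after seeing the data, against those 1194 of them whose isoform number lay in the same range of 11 to 36. Where a pair of values follows "against", the first is for all other genes and the second for that range. Intervals in parentheses are 95% Wilson intervals for shares and order-statistic intervals for medians, and they cover the sampling of genes or isoforms only.

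The tissues carried their markers. All 10 neuronal and all 12 photoreceptor markers had isoforms in heads, against 10 and 2 in embryos and 0 and 1 in ovaries, and 5 of 7 germline and ovary markers did in ovaries, all but BicC and vas, beside 3 in heads and 1 in embryos. Heads also carried all 8 glial, 8 muscle, 6 fat body, 4 hemocyte, 4 gut, 4 cuticle and trachea and 5 testis markers, so that a head isoform cannot be given to 1 cell type. In embryos 8 glial, 7 muscle, 4 fat body, 3 hemocyte, 2 gut, 4 cuticle and trachea and 0 testis markers had isoforms, and in ovaries 4, 7, 6, 2, 0, 0 and 0. Libraries without size selection existed for heads only. Of the isoforms of the 28 genes, 49.2% were shorter than 3000 nt, against 20.5% and 25.2% in the other head genes, and in Cyp313a1, Gbeta76C, Obp19d, SiaT and Miox every isoform was shorter. The share of all isoforms under this length was 38.1% for heads, 24.7% for embryos and 57.2% for ovaries. The authors also report much deeper sequencing of neural tissue than of the other tissues. The head assembly held 74482 isoforms and 11280 FlyBase IDs, that of embryos 20701 and 6525, and that of ovaries 13398 and 6690. Absence of a gene from embryos or ovaries, and lower counts there, can therefore also reflect fewer reads. The parts of size selection and of depth in this absence were not tested. In these whole tissues, fewer cells of a type and less RNA per cell cannot be told apart.

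A gene makes several isoforms by starting transcription at more than one transcription start site (TSS), by cleaving and polyadenylating the RNA at more than one poly(A) site (PAS), or by splicing the same precursor in different ways. Splicing can skip an exon, shift a splice site or leave an intron in the mature RNA, and a retained intron inside the coding region often brings a stop codon far upstream of the last exon junction. The compound eye fills much of the fly head, and its photoreceptors detect light in rhabdomeres, stacks of microvilli that hold rhodopsin and the phototransduction proteins.

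Most isoforms of the 28 genes retained an intron, led by Cyp313a1, Dh44-R1 and tadr with 19 of 20, 11 of 12 and 19 of 21. An isoform was counted as retaining an intron when 1 of its exons ran across a whole intron that another head isoform of the gene had spliced. This held for 298 of the 476 isoforms, or 62.6% (58.2% to 66.8%), against 50.8% and 53.7% of the isoforms of the other head genes. By gene, the median share was 64.0% (54.5% to 75%), against 54.5% and 56.2% in the other genes. Over 50% of isoforms retained an intron in 20 of the 28 genes (71.4%, 52.9% to 84.7%, against 56.1% and 57.3% of the others). Both intervals by gene reach the values of the other genes. Isoforms of 1 gene share its introns and are not independent. The 10 genes set aside by family lay higher still, with a retained intron in 239 of 319 isoforms (74.9%). Of 273 introns in the 28 genes, 183 were retained in at least 1 isoform (67.0%, against 58.1% in both sets of other genes), and 272 began with GT and ended with AG. The retained introns had a median length of 175 nt (116 to 250 nt), and the 90 introns never retained one of 244.5 nt (102 to 909 nt). In the other genes with 11 to 36 isoforms these medians were 252 nt for retained introns and 1369 nt for introns never retained.

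**Figure D1:**
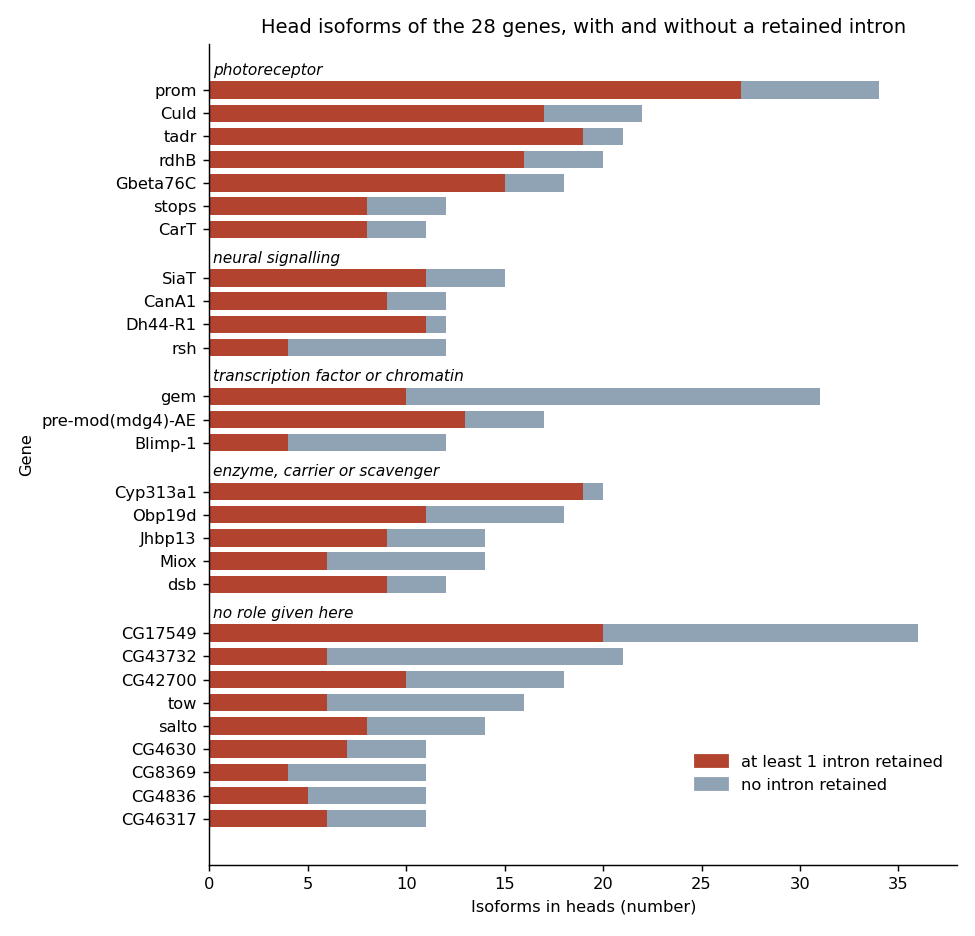
Number of head isoforms (horizontal axis) of each of the 28 genes, grouped by role, split into isoforms with at least 1 retained intron (red) and with none (grey). Retention covers 27 of 34 prom isoforms and 19 of 20 Cyp313a1 isoforms, but 10 of 31 gem isoforms and 4 of 12 rsh isoforms.

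Ends varied in a smaller share of the 28 genes than of the other genes, with wide intervals. With 5′ ends over 50 nt apart counted as separate TSSs, 11 genes had several TSSs (39.3%, 23.6% to 57.6%, against 54.8% and 50.3%). With 3′ ends over 150 nt apart counted as separate PASs, 22 genes had several PASs (78.6%, 60.5% to 89.8%, against 93.8% and 92.6%), and 10 genes had several of both (35.7%, against 52.4% and 47.6%). The median gene had 1 TSS (1 to 2) and 3 PASs (2 to 3), against 2 TSSs (1 to 2) and 4 PASs (4 to 4) in the other genes with 11 to 36 isoforms. Cyp313a1, salto, CanA1, Dh44-R1 and CG4630 had 1 TSS and 1 PAS each, which makes 17.9% (7.88% to 35.6%) of the 28 genes, against 3.7% and 4.61%. In 9 of the 28 genes every isoform had an intron chain (the ordered set of its introns) of its own. A cassette exon, included in some isoforms and skipped in others, was found in 15 of the 28 genes (53.6%, 35.8% to 70.5%, against 71.5% and 65.8%). The genes were also compact relative to the other genes with 11 to 36 isoforms: their annotated span had a median of 4159.5 nt (3026 to 7448 nt) against 11167 nt, their longest intron one of 1569 nt against 5141.5 nt, and the Ensembl annotation listed a median of 2.5 transcripts for them against 4. They lay on all major chromosome arms, with 4 on 2L, 7 on 2R, 6 on 3L, 8 on 3R and 3 on X.

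**Figure D2:**
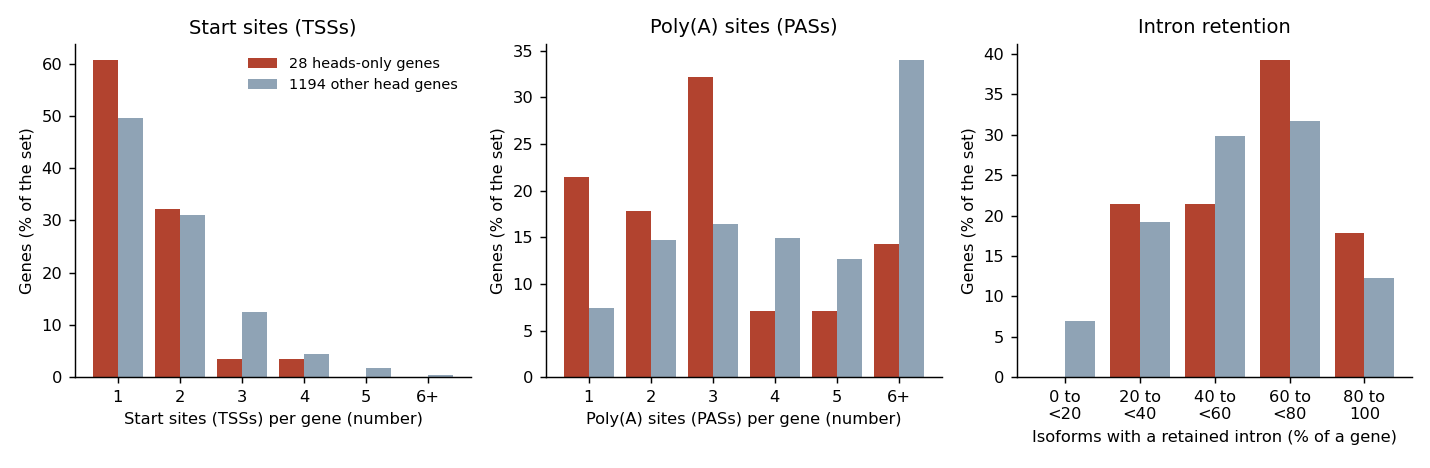
Share of genes (%) by number of TSSs (left), number of PASs (middle) and share of isoforms with a retained intron (right) for the 28 heads-only genes (red) and the 1194 other head genes with 11 to 36 isoforms (grey). Genes with 1 PAS make up 21.4% of the 28 and 7.37% of the others, and genes with 6 or more PASs make up 14.3% of the 28 and 34.0% of the others.

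The reading frame was followed in 452 isoforms that contained an annotated start codon. It ended over 50 nt before the last exon junction in 245 of them (54.2%, 49.6% to 58.7%, against 41.6% and 40.7% in the other genes), and it matched an annotated protein in 168 (37.2%, 32.8% to 41.7%, against 35.7% and 40.8%). Whether such isoforms are translated or degraded was not measured. CG43732 and CG46317 gave all their 21 and 11 isoforms to both counts, with annotated proteins of 36 and 15 residues. Their frames were read from the start codon annotated for the deposited ID, although all these isoforms used splice sites of CG42613 or Tat. Without these 2 genes the share that ended early was 50.7%. The share that matched an annotated protein was not recomputed without them. The 2 counts overlap, so an early end does not mean a frame outside the annotation. Frames that ended early were also annotated in CG4836 (836 residues, 5 isoforms), Culd (181 residues, 5 of 6), salto (589 residues, 4, and 681 residues, 1 of 2) and prom (911 residues, 1). Of the intron chains 356 of 476 (74.8%, 70.7% to 78.5%) were not in the annotation, against 77.4% and 70.4%. The order of these shares thus turned with the choice of genes, as it did for annotated proteins with CG43732 and CG46317 included. Single introns were mostly known, with 235 of 273 in the annotation (86.1%, against 86.2% and 88.9%).

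Photoreceptor genes made up the largest group with a known role, with 7 genes and 138 isoforms, of which 110 retained an intron (79.7%). The lowest share in this group was 66.7% in stops and the highest 90.5% in tadr. A list of 27 genes for retinal structure and retinoid metabolism held 5 of the 28 genes (prom, rdhB, Gbeta76C, CarT and stops). Of its 26 genes found in the annotation, heads held isoforms of 25, embryos of 17 and ovaries of 10. In heads 18 of its genes had 11 or more isoforms, as had 1524 FlyBase IDs in all, among them the 28 genes. Its 18 genes with 11 or more head isoforms had a median share of isoforms with a retained intron of 67.9% (47.7% to 80%), and the 13 of them outside the 28 genes one of 60%.

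Prominin (prom, FBgn0259210, chr2R:24415410-24428387, minus strand), a membrane protein of the rhabdomeres that works with eyes shut to keep them apart, had 34 isoforms with 34 intron chains, all from 1 TSS. The last of its 20 annotated introns, of 221 nt, was retained in 22 isoforms and spliced in 8. A stretch of 856 nt further upstream was spliced out whole in 23 isoforms, while 7 isoforms kept exons inside it. The other annotated introns were retained in 0 to 8 isoforms. Annotated proteins of 1235, 1066 and 911 residues were encoded by 1 isoform each, and the reading frame ended early in 19 of 30 isoforms.

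The gene torn and diminished rhabdomeres (tadr, FBgn0032911, chr2L:21075405-21081053, plus strand), whose product brings histidine into photoreceptors for histamine synthesis, had 21 isoforms with 21 intron chains. In the order of its 8 annotated introns, 3, 6, 5, 12, 13, 7, 4 and 3 isoforms retained the intron. Introns 4 and 5, of 85 and 558 nt, were thus retained more often than spliced. The annotated protein of 685 residues was encoded by 1 isoform, and 18 frames ended early. Of its 2 PASs, 1 isoform used the distal one, 9199 nt from the TSS instead of 5647 nt.

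Gbeta76C (FBgn0004623, chr3L:19687637-19689992, plus strand), the G-protein beta subunit of the phototransduction cascade, had 18 isoforms from 1 TSS. Its 5 introns were retained in 1, 6, 5, 11 and 7 of the 18 isoforms, so that only the first, of 421 nt, was spliced nearly always. The protein of 346 residues was encoded by 2 isoforms, and 10 frames ended early. Its upstream sequence is shown because it carries a motif known from photoreceptor promoters of the fly, in which TAAT, any 3 bases and ATTA form a palindrome that homeodomain proteins can bind. The pattern occurred 2 times, beginning at positions -80 and -67 from the first base of the isoforms. Capitals mark the fixed letters (chr3L:19687555-19687584, plus strand, RefSeq copy of dm6):
Gbeta76C promoter: ggcTAATccaATTAgcTAATtgcATTAccg
The pattern reads alike on both strands. It was found between -250 and +50 at 1 of the 42 TSSs of the 28 genes (2.38%), this one, and at 2.96% of 14039 head TSSs of FlyBase genes. A match is a description of the sequence and not of binding.

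rdhB (FBgn0038946, chr3R:22351696-22356264, plus strand), a retinol dehydrogenase of the visual pigment cycle, had 20 isoforms, of which 16 retained an intron. Its annotated intron 4, of 2816 nt, was retained in 8 isoforms and spliced in 10. The 2 TSSs lay 549 nt apart and gave 3 and 17 isoforms, and 2 isoforms encoded the protein of 248 residues. Culd (FBgn0035880, chr3L:8352355-8356296, minus strand), a CUB and LDLa domain protein that takes part in rhodopsin and TRPL endocytosis, had 22 isoforms, 17 with a retained intron. Its 6 annotated introns were retained in 5, 9, 7, 5, 5 and 5 isoforms, where the last 2 introns share a donor and were retained in the same isoforms. Annotated proteins of 181, 684, 740 and 965 residues were encoded by 6, 1, 3 and 2 isoforms.

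CarT (FBgn0032879, chr2L:20727151-20730282, minus strand), the carcinine transporter that returns the histamine metabolite to photoreceptors, had 11 isoforms, 8 of them with a retained intron. The introns concerned were mostly introns 2 and 3, of 211 and 148 nt, retained in 7 and 6 isoforms and spliced in 3 and 4. The protein of 674 residues was encoded by 2 isoforms. The gene stops (FBgn0086704, chr3R:31158156-31169106, minus strand), whose SOCS-box protein is needed to end the light response on time, had 12 isoforms, 8 with a retained intron. Its 601-nt intron 3 was retained in 6 and spliced in 6, and its 2 TSSs, 502 nt apart, gave 9 and 3 isoforms.

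**Figure D3:**
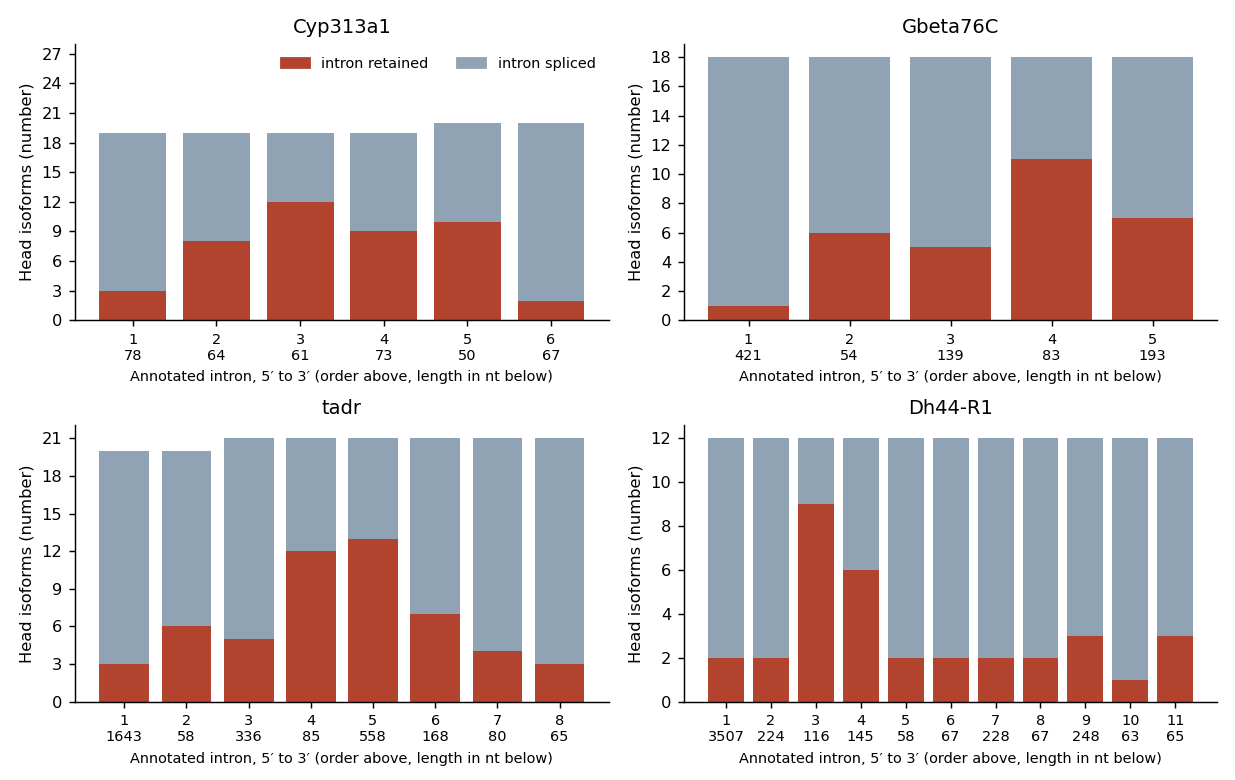
Number of head isoforms (vertical axis) that retained (red) or spliced (grey) each annotated intron of Cyp313a1, Gbeta76C, tadr and Dh44-R1, with the intron's order and length in nt below each bar. Retention peaks at intron 3 of Cyp313a1 (12 of 19), intron 4 of Gbeta76C (11 of 18), intron 5 of tadr (13 of 21) and intron 3 of Dh44-R1 (9 of 12).

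Among 5 genes for enzymes, carriers and a scavenger receptor, 54 of 78 isoforms retained an intron (69.2%). The cytochrome P450 gene Cyp313a1 (FBgn0038236, chr3R:14521049-14523064, plus strand) was the plainest case: its 20 isoforms shared 1 TSS and 1 PAS and differed by splicing only. They had 20 intron chains, and 19 of them retained an intron. In the order of its 6 annotated introns, of 78, 64, 61, 73, 50 and 67 nt, 3, 8, 12, 9, 10 and 2 isoforms retained the intron. By isoform, 1 retained none of these introns, 6 retained 1, 5 retained 2, 5 retained 3, 2 retained 4 and 1 retained 5. A single isoform encoded the annotated protein of 492 residues, and 18 of 20 frames ended early, most often after 132 residues (6 isoforms) or 190 residues (5 isoforms). The donor sites of the 6 introns are shown because retention differed between them, with 12 exon bases first and capitals on the first 6 intron bases (chr3R:14521248-14521277, 14521527-14521556, 14521777-14521806, 14521911-14521940, 14522111-14522140 and 14522735-14522764, plus strand, RefSeq copy of dm6):
Cyp313a1 intron 1: tcacctataaacGTAAATtttagacttaaa
Cyp313a1 intron 2: tgggaaaacaagGTGCCTacactgcagcat
Cyp313a1 intron 3: aaatagccgcccGTAAGCcatctaatcaag
Cyp313a1 intron 4: aagcttcgaatcGTAAGAgaaactttaagc
Cyp313a1 intron 5: atgttggacaacGTAGGTaatgatggtctt
Cyp313a1 intron 6: gaaattgcattgGTGGGTtgatcaccgcca
None of the 6 reads GTAAGT or GTGAGT, common donor letters in the fly. In the 28 genes 74 of 183 introns retained at least once began with one of these (40.4%), against 49 of 90 never retained (54.4%). In the other head genes with 11 or more isoforms the shares were 39.9% of introns retained at least once and 50.7% of those never retained, close to the 28 genes.

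Obp19d (FBgn0011280, chrX:20419613-20420979, plus strand), an odorant-binding protein, had 18 short isoforms of 486 to 1410 nt, with 1 PAS and 2 TSSs 477 nt apart that gave 6 and 12 of them. Its annotated intron 2, of 72 nt, was retained in 7 and spliced in 8, and 4 isoforms encoded the protein of 150 residues. Jhbp13 (FBgn0032494, chr2L:13239989-13241773, plus strand), of the juvenile hormone binding protein family, had 14 isoforms with 5 intron chains, so that its number came from ends as well: 2 TSSs 130 nt apart and 4 PASs over 2643 nt. The longest had a last exon of 4035 nt. Miox (FBgn0036262, chr3L:12184984-12187860, plus strand), the myo-inositol oxygenase, had 14 isoforms with 6 intron chains, 2 TSSs 974 nt apart and 3 PASs, and its proteins of 292 and 275 residues were encoded by 5 and 3 isoforms. The CD36-family scavenger receptor debris buster (dsb, FBgn0035290, chr3L:1893408-1910197, minus strand) had 12 isoforms with 12 intron chains, 9 of them with a retained intron. Its introns of 1161 and 100 nt and its last, of 58 nt, were retained in 5, 6 and 5 isoforms.

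Among the 42 TSSs of the 28 genes, 5 had the letters TATAAA within positions -45 to -14 of the first base (11.9%, against 6.01% of all head TSSs). They belonged to Cyp313a1, Obp19d, Jhbp13, Miox and CG8369, at -33, -29, -38, -30 and -40. Only the strand that reads like the RNA was searched. The share of 11.9% rests on 5 TSSs, no interval was computed for it, and the difference was not tested. Annotated 5′ ends, allowing 50 nt, matched 40 of the 42 TSSs (95.2%, against 95.5% and 95.4% of the distinct 5′ ends of the other genes). The authors kept only reads whose 5′ end lay in the Eukaryotic Promoter Database, so a high share was largely built in for every set.

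In the 4 genes for neural signalling 35 of 51 isoforms retained an intron (68.6%), but the genes differed widely. Dh44-R1 (FBgn0033932, chr2R:14378097-14385359, plus strand), a receptor for diuretic hormone 44 and the single member on a list of neuropeptides and their receptors, had 12 isoforms with 1 TSS and 1 PAS. Its intron 3, of 116 nt, was retained in 9 and spliced in 3, its intron 4, of 145 nt, was retained in 6, and each of the other 9 introns was retained in 1 to 3. One isoform retained 10 of the 11 introns. The reading frame ended after 155 residues in 7 isoforms, and 2 encoded the receptor of 504 residues. Of the 70 matched genes on that list heads held isoforms of 63, embryos of 35 and ovaries of 3, and 8 genes had 11 or more in heads. SiaT (FBgn0035050, chr2R:24691422-24694386, minus strand), the sialyltransferase of the fly, had 15 isoforms with 15 intron chains, 11 with a retained intron, and its proteins of 474 and 451 residues were encoded by 4 and 5 isoforms.

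CanA1 (FBgn0010015, chr3R:31039374-31046821, plus strand), a catalytic subunit of the calcium-dependent phosphatase calcineurin, had 12 isoforms with 12 intron chains from 1 TSS to 1 PAS. It spliced 7 of its 14 introns in every isoform that reached them, and 9 isoforms retained at least 1 of the other 7. Proteins of 622 and 596 residues were encoded by 3 and 2 isoforms. CanA1 stood alone among the 28 genes on a list of 38 genes for cyclic nucleotide and calcium signalling, of which heads held isoforms of 38, embryos of 34 and ovaries of 22.

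The memory gene radish (rsh, FBgn0265597, chrX:12988615-13079070, plus strand) was unlike these. Its 12 isoforms, of 4676 to 9321 nt, shared 1 TSS and had 10 PASs, with 3′ ends between 48992 and 89957 nt from the TSS, a spread of 40965 nt. Of the 10 PASs, 8 were used by 1 isoform each. Its longest intron spanned 43152 nt, and 4 of the 12 isoforms retained an intron. No intron chain and no 3′ end of rsh was in the annotation, and no frame matched 1 of its 6 annotated proteins of 1171 to 1799 residues. The frames had 67 to 1530 residues, with 1528 residues in 3 isoforms. The last 30 bases at the 3 PASs with the poly(A) signal AATAAA in the 50 nt upstream are shown, with AATAAA in capitals (chrX:13037579-13037608, 13051565-13051594 and 13077627-13077656, plus strand, RefSeq copy of dm6):
rsh PAS 1: ggggaacagggccaAATAAAaaaaaaaaaa
rsh PAS 4: aatttgaattttAATAAAtagagttgtatt
rsh PAS 8: aaaggccaaaaccaccattaaaaAATAAAa
The signals began 16, 18 and 7 nt from the end. At PAS 1 the genome read only A from the signal's T to the end of the isoform. In the 20 nt downstream, PAS 1 had 8 A, PAS 4 had 3 and PAS 8 had 10, all under the 12 that counted as A-rich, which PAS 10 passed with 13.

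**Figure D4:**
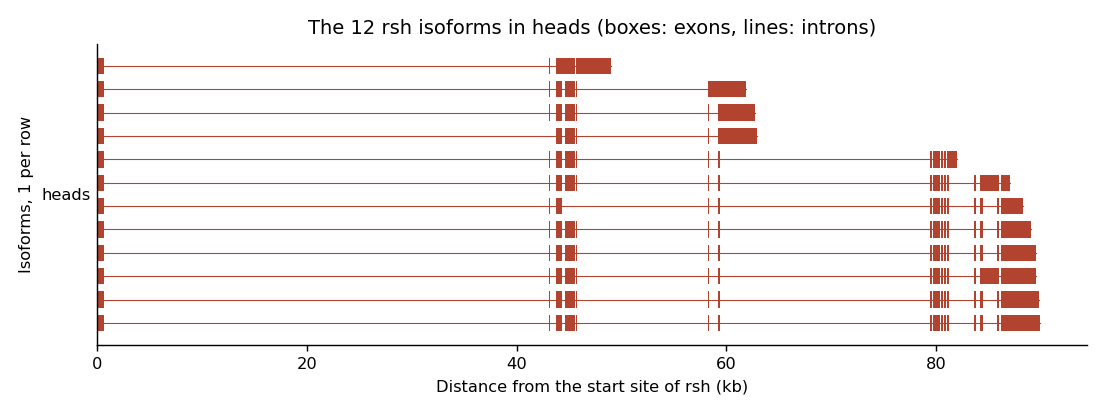
The 12 head isoforms of rsh, 1 per row, by distance from its TSS in kb, with exons as boxes and introns as lines. All start at the same place, 4 end between 48992 and 62978 nt from it, and 8 end between 82014 and 89957 nt.

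Over all 28 genes, 94 PASs were counted, of which 27 matched an annotated 3′ end, allowing 150 nt. Of the 112 distinct 3′ ends, 36 matched an annotated one (32.1%, 24.2% to 41.3%, against 28% and 31.8%), 29 had AATAAA in the 50 nt upstream (25.9%, 18.7% to 34.7%, against 24.3% and 26.4%), and 10 were followed by A-rich sequence (8.93%, 4.92% to 15.7%, against 8.84% and 8.07%). These shares lay close to those of the other genes. CG43732 held 4 of the 10 A-rich ends. Among the 67 PASs away from annotated ends, 15 had AATAAA and 3 were followed by A-rich sequence. The sources used here do not say if the authors' filter for proven 3′ ends was applied to these assemblies. The head assembly alone held 74482 isoforms, more than the authors' final filtered set over all tissues. The isoforms and 3′ ends counted here may thus include many that this filter removes.

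The 3 genes for transcription factors and chromatin varied at their ends as well as by retention, which touched 27 of their 60 isoforms (45.0%). Blimp-1 (FBgn0035625, chr3L:5630983-5652094, plus strand), a zinc-finger repressor, had 3 TSSs at 0, 5032 and 11020 nt that gave 4, 5 and 3 isoforms. Each had a first exon of its own, joined to the same second exon by introns of 12605, 7568 and 1752 nt. With 6 PASs, its 12 isoforms made 9 combinations of TSS and PAS. A 39-nt cassette exon was included in 2 isoforms, and proteins of 1203 and 1216 residues were encoded by 6 and 2 isoforms. Its longest last exon had 4202 nt.

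pre-mod(mdg4)-AE (FBgn0261842, chr3R:21365609-21368279, plus strand) is 1 of several transcription units at mod(mdg4), a chromatin gene whose mRNAs are made by trans-splicing of separate precursors. It had 17 isoforms from 1 TSS with 6 PASs over 2466 nt. Its 111-nt intron 2 was retained in 13 and spliced in 4. None of the 17 isoforms contained an annotated start codon, and all 17 overlapped exons of other annotated precursors of the locus, so which precursor a read came from cannot be told apart.

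The CP2-family transcription factor gene gemini (gem, FBgn0050011, chr2R:10124293-10137472, plus strand) had 31 isoforms with 4 TSSs over 11028 nt and 11 PASs over 8778 nt, which made 17 of the possible combinations. The first and the third TSS gave 16 and 12 of its isoforms. Retention touched 10 of the 31 isoforms. Acceptors 39 nt apart made an intron of 91 nt in 5 isoforms and of 130 nt in 22, and proteins of 932 and 919 residues were encoded by 5 and 9 isoforms. A truncated frame of 252 residues occurred in 4.

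Under other IDs, isoforms of the gem locus were present in embryos and ovaries. An overlapping annotated gene on the same strand, CG46319, had no isoform in heads, but 11 in embryos and 4 in ovaries, all of which shared introns with the gem isoforms of heads. Of these, 8 embryo and 3 ovary isoforms were near-identical to a head isoform of gem (all splice sites matched to 10 nt, the TSS to 50 nt and the PAS to 150 nt). Seen from heads, 7 of the 31 gem isoforms had a near-identical one in embryos and 3 in ovaries.

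**Figure D5:**
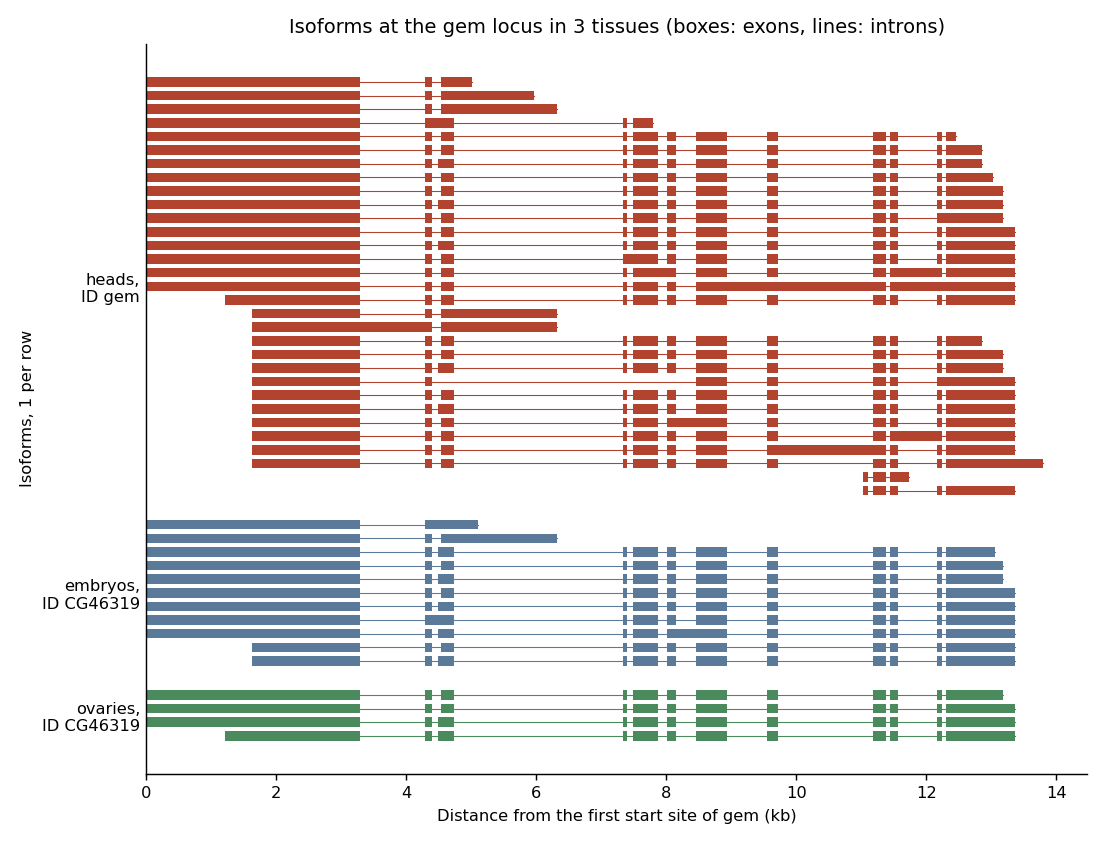
Isoforms at the gem locus, 1 per row, by distance from the first TSS of gem in kb, with 31 head isoforms listed under gem (red) and 11 embryo (blue) and 4 ovary (green) isoforms listed under CG46319. Near-identical head isoforms exist for 8 of the embryo and 3 of the ovary isoforms.

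The same was seen at CG43732, whose 21 head isoforms all overlapped CG42613 and used its splice sites. All 3 embryo isoforms under CG42613 were near-identical to head isoforms of CG43732, 4 of which had such a partner, and heads held 11 further isoforms under CG42613. In 5 more genes an embryo or ovary isoform under another ID shared an intron with a head isoform (CG17549, Culd, pre-mod(mdg4)-AE, CarT and CG8369), and in 3 an unspliced embryo isoform without a FlyBase ID overlapped (tadr by 3215 nt, Dh44-R1 by 4373 nt and rsh by 624 nt). The remaining 18 genes had no overlapping isoform on their strand in either tissue: prom, Cyp313a1, rdhB, Gbeta76C, Obp19d, CG42700, tow, SiaT, Jhbp13, Miox, salto, CanA1, dsb, Blimp-1, stops, CG4630, CG4836 and CG46317.

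Some of the shared introns came from isoforms that joined 2 neighbouring genes. One Culd isoform began 4610 nt upstream of the others and used splice sites of Idh, the gene for isocitrate dehydrogenase. One CarT isoform likewise began 4027 nt upstream in TM9SF2. Both were the only isoforms of the 28 genes whose TSS was not near an annotated 5′ end of the gene itself. Downstream, 2 CG17549 isoforms used splice sites of fon, 1 CG8369 isoform used those of CG8379, and 14 gem isoforms ran into CG12917 without using its splice sites. All 11 CG46317 isoforms overlapped Tat, by up to 2508 nt, and used its splice sites. No tissue held an isoform under the ID of Tat, so these isoforms may be those of Tat under another ID. The absence of Tat from heads can thus not be read from its ID.

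Genes without a role given here numbered 9 and held 149 isoforms, 72 with a retained intron (48.3%). The most isoforms of all 28 genes belonged to CG17549 (FBgn0032774, chr2L:19387050-19390075, minus strand), with 36, of which 20 retained an intron. They came from 2 TSSs 276 nt apart, which gave 22 and 14 isoforms, and joined exons in 29 chains with 6 cassette exons. Proteins of 287 and 262 residues were encoded by 6 and 4 isoforms. A 92-nt intron was retained in 18 and spliced in 10. When near-identical isoforms were merged, 28 remained.

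CG43732 (FBgn0263983, chr3R:18950196-18976557, plus strand) had 21 isoforms with 1 TSS and 5 PASs, a longest intron of 15066 nt, and 6 isoforms with a retained intron. Its PASs 2, 3 and 4, used by 1, 8 and 6 isoforms, had 12, 15 and 12 A in the 20 nt downstream, which counted as A-rich. CG43732 also held the 1 internal exon of 30 nt or less in the 28 genes. Exons this small are known to need special care in alignment, and this one, of 27 nt and in the annotation, was included in 12 isoforms and skipped in 9. It is shown whole in capitals (chr3R:18969682-18969708, plus strand, RefSeq copy of dm6):
CG43732 27-base exon: CGGTTCGGCCGTCGGTGAATTACCAAG

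The gene target of wingless (tow, FBgn0035719, chr3L:6942856-6949313, plus strand) had 16 isoforms from 1 TSS, with 6 that retained an intron, the lowest share of early frame ends (1 of 16) and mostly annotated proteins (12 of 16). Introns of 1425 and 1330 nt, which end at the same acceptor, were retained in the same 6 isoforms. It also varied at 2 pairs of acceptor sites. In each pair the sites lay 15 nt apart, shown with the AG of both in capitals (chr3L:6946489-6946518 and 6947959-6947988, plus strand, RefSeq copy of dm6):
tow acceptors 1: tcacttttccAGggaaatatcatctAGcca
tow acceptors 2: atttaaatacAGtgatgtgcatttcAGcat
At the first pair 12 isoforms used the upstream site and 4 the downstream one, and at the second pair 6 and 10. All 4 combinations occurred. Upstream with upstream was found in 5 isoforms, upstream with downstream in 7, downstream with upstream in 1 and downstream with downstream in 3. Each downstream site removed 15 nt from the coding sequence, so that complete frames had 451 residues with both upstream sites (4 isoforms), 446 with one of each (6 isoforms) and 441 with both downstream sites (2 isoforms).

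CG4836 (FBgn0270925, chr3R:20013872-20018248, plus strand) had 11 isoforms, 1 TSS and 2 PASs, and used 3 acceptors within 9 nt (chr3R:20016804-20016833, plus strand, RefSeq copy of dm6), each AG in capitals:
CG4836 acceptors: aatcatcctgttcccaAGacAGaatAGgca
The middle acceptor, 4 nt after the first, was used by 6 isoforms, and its frame ended early after 836 residues in 5 of them. The first acceptor was used by 2 isoforms with 1217 residues, and the third, 9 nt after the first, by 1 isoform with 1214 residues. These 3 proteins are in the annotation. The 2 isoforms that retained the intron gave 837 residues. Merging near-identical isoforms left CG4836 with 7, CG8369 with 9 and CG46317 with 10, all under the limit of 11.

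CG42700 (FBgn0261611, chr2R:12279771-12300795, plus strand) had 18 isoforms with 17 intron chains, a longest intron of 15839 nt, and 2 TSSs 11018 nt apart that gave 11 and 7 isoforms. Retention touched 10 of them. The gene salto (FBgn0061197, chr2R:12302544-12306269, minus strand) had 14 isoforms with 14 chains from 1 TSS to 1 PAS, 8 with a retained intron, over 13 introns of at most 248 nt, of which 11 were retained at least once. CG4630 (FBgn0033809, chr2R:13215659-13219247, minus strand) had 11 isoforms with 11 chains, also from 1 TSS to 1 PAS, and 7 with a retained intron. By contrast CG8369 (FBgn0040532, chr3R:8822008-8822838, plus strand), with 11 isoforms, had 4 chains and 5 PASs over 4441 nt, and CG46317 (FBgn0284233, chrX:14261223-14264844, plus strand), with 11 isoforms, had 5 chains and 4 PASs over 642 nt.

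None of the 28 genes was on the other 6 lists of head genes: metabotropic transmitter receptors, synaptic vesicle and release genes, cell adhesion genes, RNA-binding regulators, neuronal transcription factors, and genes for axonal transport and the cytoskeleton. In these lists, in this order, 7 of 8, 38 of 40, 57 of 59, 29 of 29, 40 of 41 and 21 of 21 matched genes had isoforms in heads. Genes with 11 or more head isoforms numbered 4, 27, 27, 24, 21 and 11, and 0, 3, 0, 0, 8 and 1 genes with any number were found in heads only. The 28 genes were few among the 1524 head genes with 11 or more isoforms, so lists of this size would hold few of them. The counts of 0 are not read as a trait of the 28 genes.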

How the data were processed

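The deposited values used here were genomic positions of transcripts and exons (start and end on dm6) in 3 assemblies, and no other unit was present. Per the methods, the authors pooled the reads of a tissue (14 PCR cycles with 12 min extension), mapped them with minimap2, built isoforms with FLAIR from at least 3 full-length reads whose 5′ end lay in the Eukaryotic Promoter Database, and annotated them with SQANTI3. From these positions, TSSs, PASs, introns and reading frames were computed in Python 3.11.15 with scipy 1.17.1, and figures with matplotlib 3.10.9. The Ensembl gene set served as annotation, and 14 of the 1486 other head genes with 11 or more isoforms were not in it and were left out of annotation shares. Reading frames started at the most 5′ annotated start codon in an isoform. Introns were counted per gene ID as deposited, by strand, and overlapping introns that differed in a splice site were counted separately. The counts of TSSs, PASs, chains and retained introns were tested on simulated data.

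Genes named are the 20 with most isoforms, the top 3 by ends, chains, lengths and introns, genes with small exons, on a list or at the limit. These covered all 28. The genes and lists were chosen with earlier results of these data known. Replicates were pooled, so no test was run. Alternatives covered end windows, splice tolerance, isoform limits and overlap.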

Additional observations from a re-analysis of the deposited data

How the results depend on the processing

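No paired analysis was possible because the replicates of each tissue were pooled into 1 assembly, and for the same reason no replicate could be left out. Of 155 alternative values for 20 results, 141 stayed within the interval of the value given or, for counts, near it. Many of these could not move. The 28 genes held no muscarinic receptor gene and no single-exon isoform, so leaving these out repeated every value. Lists without any of the 28 genes also had to stay at 0 wherever genes were left out. The number 141 is therefore not a measure of robustness. With the 10 genes set aside by family kept, retention touched 67.5% of isoforms, frames ended early in 61.6% and chains were outside the annotation in 80.1%. A PAS window of 300 nt left 57.1% of the 28 genes with several PASs. AATAAA or ATTAAA stood upstream of 38.4% of 3′ ends, and 14 A of 20 followed 3.57%. With a limit of 16 isoforms 13 genes remained, of which 6 overlapped isoforms of another ID, 3 were on the retina list, and 0 each on the lists of neuropeptides and of calcium signalling. Leaving out genes with overlapping isoforms left 18 genes, 0 of them overlapping and 0 on the neuropeptide list. Chosen after seeing the data, counting retention over annotated introns only or with near-identical isoforms merged and all 28 genes kept, and leaving out gem and CG43732 for all results, moved no value that far.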
